A study of Mus musculus with 3 samples.

Results

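The 10 genes described here encode the major histocompatibility complex (MHC) class II antigen presentation machinery of the mouse. They are *H2-Aa*, *H2-Ab1*, *H2-Eb1*, *Cd74*, *H2-DMa*, *H2-DMb1*, *H2-DMb2*, *H2-Oa*, *H2-Ob* and *Ciita*. They were taken by symbol, with no threshold on a measured value, and each of the 10 occurred once among the 32285 genes of the single-cell tables. Their levels were followed in leukocytes, endothelium and fibro-adipogenic progenitors (FAPs, the mesenchymal stromal cells of muscle) of the costal diaphragm, where each class was set by marker genes that did not include any of the 10.

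MHC class II molecules are pairs of an α and a β chain that carry peptides from the endosomal pathway to the cell surface, where CD4+ T cells read them. The invariant chain, the product of *Cd74*, occupies the groove until it is cut away, H2-DM then removes its last fragment and favors peptide binding, and H2-O restrains H2-DM. *Ciita* encodes the coactivator that switches the group on, constitutively in B cells, dendritic cells and some macrophages, and after interferon-γ in many other cells.

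Mononuclear cells were released from the diaphragms of male mice with collagenase II, and live cells were sorted by exclusion of the dye DAPI. The 3 groups were C57Bl/6J mice on control diet for 6 months (WT CD), C57Bl/6J mice on high-fat diet for 6 months (WT HFD), and B6.129S2-Thbs1tm1Hyn/J mice on high-fat diet for 6 months (KO HFD). The high-fat diet supplied 45% of its calories as lipid, and the knockout removes thrombospondin-1 from the whole animal, not from one cell type. Each group was 1 library made from cells of 2 pooled mice, so no difference between groups had a replicate check, and none was tested.

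Values are UMIs, single captured transcript ends, summed over the cells of a class and scaled to the total UMIs of that class as counts per 1000000 UMIs (CPM). Because 1 UMI stands for 1 captured 3′ end, levels of different genes were compared without scaling to gene length. Intervals are 95% exact counting intervals, Poisson for levels and binomial for shares, and cover counting error only. The libraries held 4132, 3774 and 4369 cells (WT CD, WT HFD and KO HFD, in that order throughout) with 34312860, 31967976 and 36478779 UMIs. The median cell had 7632.5, 8041.5 and 7554 UMIs. A doublet caller marked 1.26, 1.09 and 1.33% of cells, which were kept. The libraries shared few cell barcodes, 7 between WT CD and WT HFD, 7 between WT CD and KO HFD, and 2 between WT HFD and KO HFD.

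*Thbs1*, the targeted gene, was read in every library first. Over all cells it stood at 136 CPM in WT CD, 202 CPM in WT HFD and 163 CPM in KO HFD. In FAPs the levels were 199.8, 238 and 231 CPM, and in leukocytes 48.8, 254 and 84.9 CPM. The KO HFD library was therefore not low in *Thbs1* UMIs. Counts of 3′ ends need not read the engineered part of the gene, so they do not check the genotype labels.

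Of the 10 genes, 8 lie together on chromosome 17 between positions 34092340 and 34316674 (mm10), a span of 224 kb, and *Ciita* lies on chromosome 16 at 10480059 to 10528418. The promoters of this group are known for conserved elements called the X and Y boxes, which position the factors that recruit the *Ciita* product. RefSeq windows (GRCm38.p6) of 250 bases before and 50 after the transcript start were on hand for 7 of the genes. The letters AACNNATG, as part of an X box, and ATTGG, as part of a Y box, were chosen after these windows had been read. Both strands were searched, and the 2 patterns share no overlapping letters. A pair on one strand with at most 30 bases between was found for *H2-DMb2*, *H2-DMb1*, *H2-Ob* and *H2-Eb1*. The stretches are printed because they place the paralogs *H2-DMb1* and *H2-DMb2*, whose levels are compared here, beside a classical and a modulator gene. Capitals mark the X letters and then the Y letters on the plus strand.
H2-DMb2, chr17:34145116-34145175: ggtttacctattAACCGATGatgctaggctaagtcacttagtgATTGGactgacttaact
H2-DMb1, chr17:34153087-34153146: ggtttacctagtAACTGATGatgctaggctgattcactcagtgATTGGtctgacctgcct
H2-Ob, chr17:34238808-34238864: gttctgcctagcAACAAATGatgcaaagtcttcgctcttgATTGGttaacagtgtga
H2-Eb1, chr17:34305766-34305824: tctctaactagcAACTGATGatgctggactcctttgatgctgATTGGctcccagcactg
In *H2-DMb2* and *H2-DMb1* the gap between the capitals was 23 bases, in *H2-Ob* 20 and in *H2-Eb1* 22. Among 32851 windows of 300 bases from 27025 genes, 8.86% held the X letters, 37.4% the Y letters and 0.253% such a pair. Because the letters were drawn from the windows of this group, these shares do not test enrichment in it. The windows of *H2-Aa*, *H2-Oa* and *H2-DMa* held no match to the X letters as spelled here. Over their whole windows, *H2-DMb1* and *H2-DMb2* matched at 215 of 342 aligned positions (62.9%).

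A cell entered the leukocyte class when at least 3 of 7 leukocyte markers had a UMI (*Ptprc*, *Coro1a*, *Laptm5*, *Cd53*, *Cd52*, *Rac2*, *Arhgdib*), the endothelial class with 3 of 7 markers such as *Pecam1* and *Cdh5*, and the FAP class with *Pdgfra* and at least 4 of 7 FAP markers. This gave 2274 leukocytes, 1039 endothelial cells and 5964 FAPs of 12275 cells. Muscle stem cells (MuSCs, 1010 cells, at least 3 of 5 markers such as *Pax7*) served as a class that should lack the genes. Because these markers set the classes, their levels describe the classes and do not test the names. *Ptprc*, the pan-leukocyte phosphatase CD45, stood at 365 CPM in the leukocyte class, 0.446 CPM in endothelium and 0.164 CPM in FAPs. The 7 leukocyte markers together stood at 72.3, 93.8 and 85.3 CPM in endothelium, where *Arhgdib* was the most abundant and *Cd53* and *Rac2* were at 0, and at 12.8, 9.95 and 10.2 CPM in FAPs.

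The class II genes were found chiefly in leukocytes. Summed over the 10 genes, leukocytes held 24881 CPM in WT CD (24776 to 24986), 26655 CPM in WT HFD (26530 to 26780) and 29841 CPM in KO HFD (29719 to 29963). Endothelium held 32.9, 26.2 and 47.1 CPM, FAPs 34.2, 20.3 and 25.3 CPM, and MuSCs 46.2, 18.0 and 16.6 CPM. Leukocytes were 19.7, 18.5 and 17.5% of cells, yet carried 91.9, 93.9 and 91.0% of all class II UMIs. Nearly all the rest lay in cells that met the rules of more than 1 class. In WT CD and WT HFD the intervals of endothelium (24.1 to 43.9 and 19.3 to 34.7 CPM) and of FAPs (31.6 to 37.0 and 18.2 to 22.5 CPM) overlapped those of MuSCs (36.2 to 58.1 and 12.04 to 25.8 CPM). In KO HFD endothelium (35.8 to 60.7 CPM) and FAPs (23.1 to 27.6 CPM) lay above MuSCs (12.2 to 22.01 CPM). Of the 73 MuSC UMIs in WT CD, 33 came from 1 cell, and without it the level was 25.8 CPM.

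**Figure D1:**
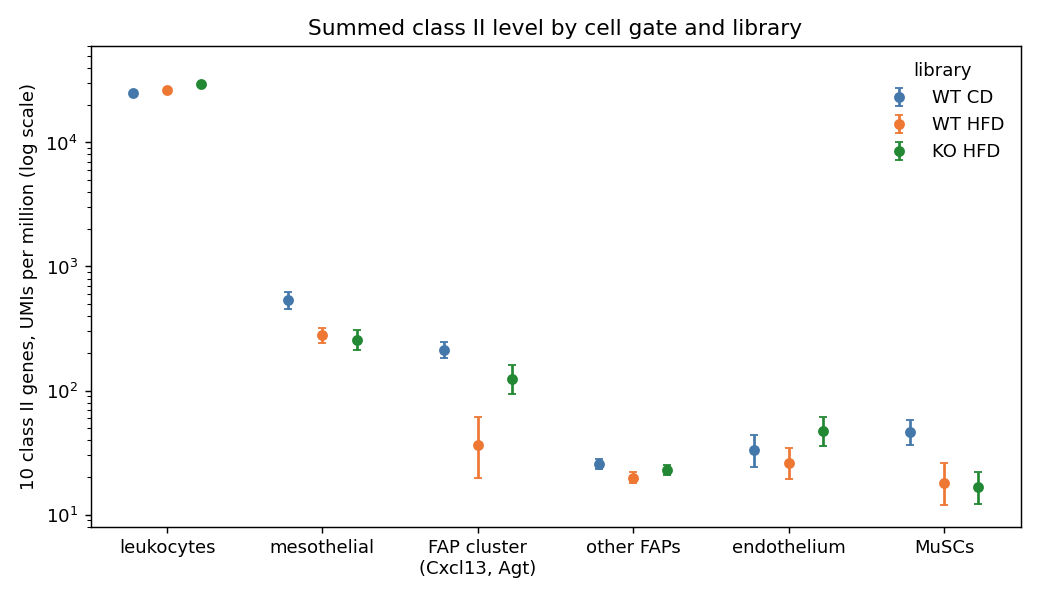
Summed UMIs of the 10 class II genes as CPM (y axis, log scale) by cell gate (x axis), with 1 point for each library (WT CD, WT HFD, KO HFD) and 95% Poisson counting intervals as bars. Leukocytes sit between 24881 and 29841 CPM, mesothelial cells between 257 and 535 CPM, and endothelium between 26.2 and 47.1 CPM, beside 16.6 to 46.2 CPM in MuSCs.

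The classical chains come first. *H2-Aa* and *H2-Ab1* encode the α and β chains of I-A, and *H2-Eb1* encodes the β chain of I-E, whose α chain gene *H2-Ea* is not expressed in C57Bl/6 mice and was not among the features used. In leukocytes *H2-Aa* stood at 3774, 4294 and 4772 CPM, *H2-Ab1* at 3851, 4359 and 4847 CPM, and *H2-Eb1* at 3856, 4430 and 4834 CPM. The 3 chains were thus level with one another in each library, and *H2-Eb1* made up 33.6, 33.9 and 33.4% of their UMIs. Cells with at least 1 *H2-Ab1* UMI were 84.1, 77.2 and 74.2% of leukocytes. After each cell was thinned to 3000 UMIs, which left out 47, 53 and 71 shallower leukocytes, the shares were 81.5, 77.2 and 74.2%. So the share of cells with the transcript was highest in WT CD while the CPM was highest in KO HFD.

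*Cd74* was the most abundant of the 10 genes. Its leukocyte levels were 12262 CPM (12188 to 12336), 12381 CPM (12296 to 12467) and 14004 CPM (13921 to 14088). This was 1.07, 0.946 and 0.969 *Cd74* UMIs for each UMI of the 3 classical chains together. It was also the gene found in most leukocytes, with at least 1 UMI in 88.3, 83.2 and 81.7% of them.

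H2-DM, the peptide editor, pairs the *H2-DMa* product with a β chain from *H2-DMb1* or *H2-DMb2*. *H2-DMa* stood at 549, 608 and 721 CPM in leukocytes. *H2-DMb1* stood at 275 CPM (264 to 287), 388 CPM (373 to 403) and 506 CPM (490.5 to 522). *H2-DMb2* ran the other way, at 164 CPM (156 to 173), 88.4 CPM (81.4 to 95.9) and 63.2 CPM (57.7 to 69.1). The intervals of the 3 libraries did not overlap for either gene. The β chain genes are close paralogs, so the split of reads between them carries an uncertainty of the counting that the intervals do not include.

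H2-O, which restrains H2-DM, is built from the *H2-Oa* and *H2-Ob* products. *H2-Oa* stood at 43.1 CPM (38.8 to 47.7), 23.1 CPM (19.6 to 27.1) and 18.0 CPM (15.2 to 21.3). *H2-Ob* stood at 72.6 CPM (67.0 to 78.5), 40.8 CPM (36.0 to 46.0) and 35.2 CPM (31.1 to 39.6). WT CD was highest for both, and the intervals of the 2 high-fat libraries overlapped. *Ciita*, the regulator, was low and similar, at 34.7 CPM (30.9 to 38.8), 42.0 CPM (37.2 to 47.3) and 39.7 CPM (35.4 to 44.4), with a UMI in 25.8, 26.1 and 25.4% of leukocytes.

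The comparison of WT HFD with WT CD asks how diet-induced obesity altered the cells, and that of KO HFD with WT HFD how loss of thrombospondin-1 did so under the same diet. Both use the WT HFD library, so their values are set side by side and not correlated. A gene was counted as higher or lower when its CPM differed at least 1.5-fold and reached 20 CPM in one of the 2 libraries. In leukocytes, 3 of the 10 genes were lower in WT HFD than in WT CD, and 0 were higher. Of all 4841 genes compared, 3.41% were lower and 16.7% higher by the same rule. The log2 ratios were −0.89 for *H2-DMb2* (−1.03 to −0.75), −0.90 for *H2-Oa* (−1.18 to −0.62) and −0.83 for *H2-Ob* (−1.04 to −0.62). The other 7 genes lay between 0.01 for *Cd74* and 0.49 for *H2-DMb1*. The median of the 10 was 0.16, beside 0.21 for all genes compared.

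Between KO HFD and WT HFD, 0 of the 10 genes were past 1.5-fold in either direction, where 2.16% of 4906 genes were higher and 2.87% lower. The nearest were *H2-DMb2*, with a log2 ratio of −0.48 (−0.66 to −0.31), and *H2-DMb1*, with 0.39 (0.31 to 0.46). The classical chains and *Cd74* lay between 0.13 and 0.18, and *Ciita* at −0.08. The median of the 10 was 0.14, beside 0.01 for all genes.

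The sum of the 10 genes was higher in WT HFD than in WT CD by a log2 ratio of 0.10 (0.09 to 0.11), and higher in KO HFD than in WT HFD by 0.16 (0.15 to 0.17). The direction of the first value depended on scaling. With TMM factors, which discount genes of extreme ratio, the median of all genes in the diet comparison moved from 0.21 to −0.03, the sum of the class II genes became −0.13, and *H2-Aa*, *H2-Ab1*, *H2-Eb1*, *Cd74* and *H2-DMa* all turned slightly negative. By the same change of scale, the genes past 1.5-fold went from 807 higher and 165 lower to 440 higher and 315 lower, so that 58.3% instead of 83.0% of calls were higher. *H2-DMb2*, *H2-Oa* and *H2-Ob* were lower under both scalings.

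The make-up of the leukocytes differed between libraries, and its part in the values above was not tested. Clusters made without the 10 genes were named from marker lists. B cell-like cells (*Cd79a*, *Cd79b*, *Ms4a1*) numbered 305, 136 and 83, which is 37.5, 19.5 and 10.9% of leukocytes. Macrophage-like cells numbered 113, 259 and 254 (13.9, 37.2 and 33.2%). Plasma cell-like cells numbered 72, 5 and 8. The summed level of 6 B cell markers over all leukocytes was 1993, 1029 and 381 CPM. These shares come from 1 digestion and sort per group. The B cell-like cells were also shallower in the high-fat libraries, with medians of 7755, 6753.5 and 4485 UMIs per cell.

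Weighting every subclass by its mean share of UMIs over the 3 libraries gave each gene's ratio at a common make-up. The diet ratios of *H2-DMb2*, *H2-Oa* and *H2-Ob* then became −0.34, −0.20 and −0.12, so that 0 of the 10 genes were past 1.5-fold. The ratios of *H2-Aa*, *H2-Ab1*, *H2-Eb1* and *Cd74* turned to −0.16, −0.18, −0.21 and −0.19, and the sum to −0.18. In the knockout comparison the sum became 0.02, *H2-DMb1* became 0.04 and *H2-Ob* became 0.50. These values have no interval and take in levels that rest on few cells. In WT CD the cavity macrophage-like level came from 6 cells, 1 of which held 704 of 743 class II UMIs. In WT HFD the Ly6c monocyte-like level came from 5 cells. The plot of ratios by gene shows the values as counted and those at a common make-up.

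**Figure D2:**
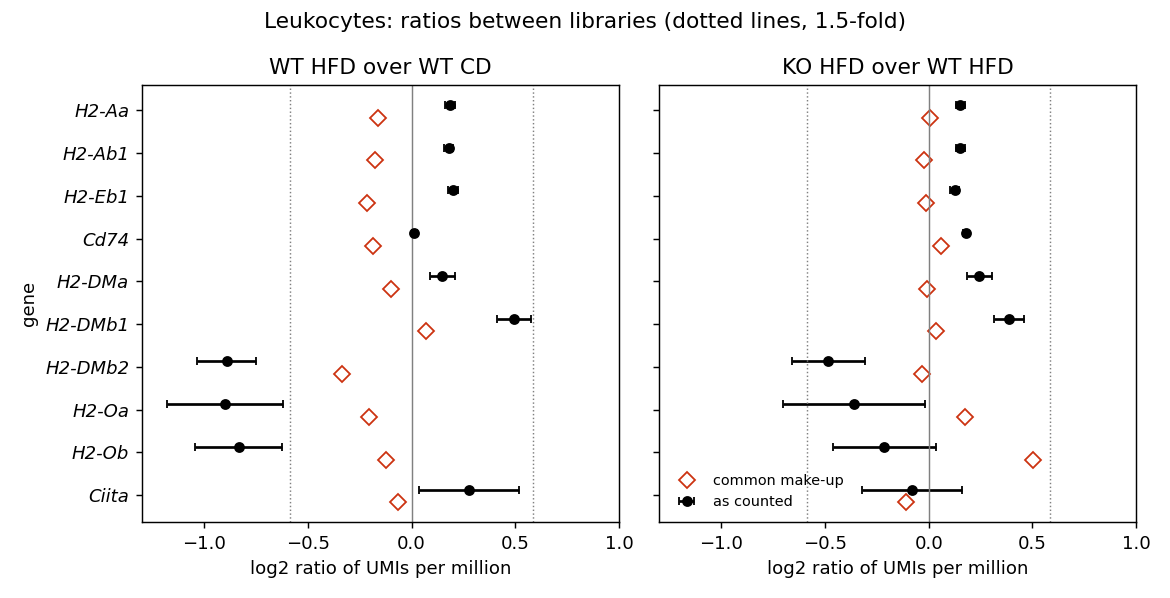
Log2 ratios of CPM in leukocytes (x axis) for each of the 10 genes (y axis), WT HFD over WT CD at left and KO HFD over WT HFD at right. Filled points with bars are the values as counted with 95% counting intervals. Open diamonds, drawn without intervals, are the values at a common make-up of subclasses, and dotted lines mark 1.5-fold. *H2-DMb2*, *H2-Oa* and *H2-Ob* lie left of the dotted line at left as counted, and no diamond lies outside the lines in either panel.

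Levels differed widely among the subclasses. Cells like cDC2 or mature dendritic cells (49, 28 and 38 cells) summed to 57208, 55865 and 60116 CPM over the 10 genes. Cells like cDC1, the dendritic cells specialized in cross-presentation (14, 16 and 24 cells), summed to 45998, 53508 and 51693 CPM. Macrophage-like cells summed to 46101, 35882 and 32175 CPM, level with cDC1-like cells in WT CD and below them in both high-fat libraries. A cluster that could not be named, led by *Aldh1a2*, *Lyz1* and *Retnla* (75, 52 and 118 cells), held 35723, 33188 and 35796 CPM. B cell-like cells held 21480, 21623 and 23263 CPM, with *H2-Aa*, *H2-Ab1* and *Cd74* in 100% of cells.

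Below these came cells with part of the program. Plasma cell-like cells (72, 5 and 8) held *Cd74* at 3951, 3349 and 7285 CPM, *H2-Aa* at 324, 165 and 966 CPM, *H2-Ab1* at 450.1, 255 and 1115 CPM and *H2-Eb1* at 398, 123 and 1100.5 CPM. *Ciita* had 3, 0 and 4 UMIs. The KO HFD levels were the highest and rest on 8 cells, 1 of which held 755 of 2189 class II UMIs. In these cells 4 of 8 endosomal processing genes (*Ifi30*, *Ctss*, *Ctsb*, *Ctsd*) were also higher in KO HFD than in WT HFD, and 1 was lower. Of 8 genes for transcription and its inducers, 3 were higher (*Irf8*, *Spi1*, *Ifngr1*) and 2 lower. Of all 3395 genes 23.5% were higher and 43.7% lower. The part of other cell types in these values was not tested. Over all 85 cells there were 3.17 *Cd74* UMIs per classical chain UMI (3.37, 6.17 and 2.29 by library), beside 0.869 in macrophage-like cells and 0.846 in cDC1-like cells. Cells like non-classical monocytes (81 cells) had *Cd74* at 1648 CPM and the classical chains between 129 and 318 CPM. Of these cells 1 held 118 of 310 class II UMIs in WT CD, 1 held 178 of 228 in WT HFD and 1 held 132 of 338 in KO HFD. Without the top cell of each library the sums were 3301, 558 and 1153 CPM. In the 81 cells *Ciita*, *H2-Oa*, *H2-Ob* and *H2-DMb2* had 0 UMIs. T cell-like cells (99) summed to 610.4 CPM, neutrophil-like cells (55) to 188 CPM (4, 1 and 16 UMIs by library, 14 of the 16 in 1 cell) and ILC2-like cells (104) to 108 CPM. In ILC2-like cells the top cell of each library held 12 of 30, 8 of 15 and 4 of 18 UMIs. Without it the ILC2-like levels went from 138, 126 and 72.0 CPM to 86.2, 61.2 and 57.2 CPM. In T cell-like cells the sum was 537, 1329 and 64.2 CPM by library, and B cell markers there stood at 155, 282 and 0 CPM. A single cell held 120 of 142 class II UMIs in WT CD and 177 of 193 in WT HFD, and without the top cell of each library the levels were 87.9, 124 and 53.2 CPM.

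**Figure D3:**
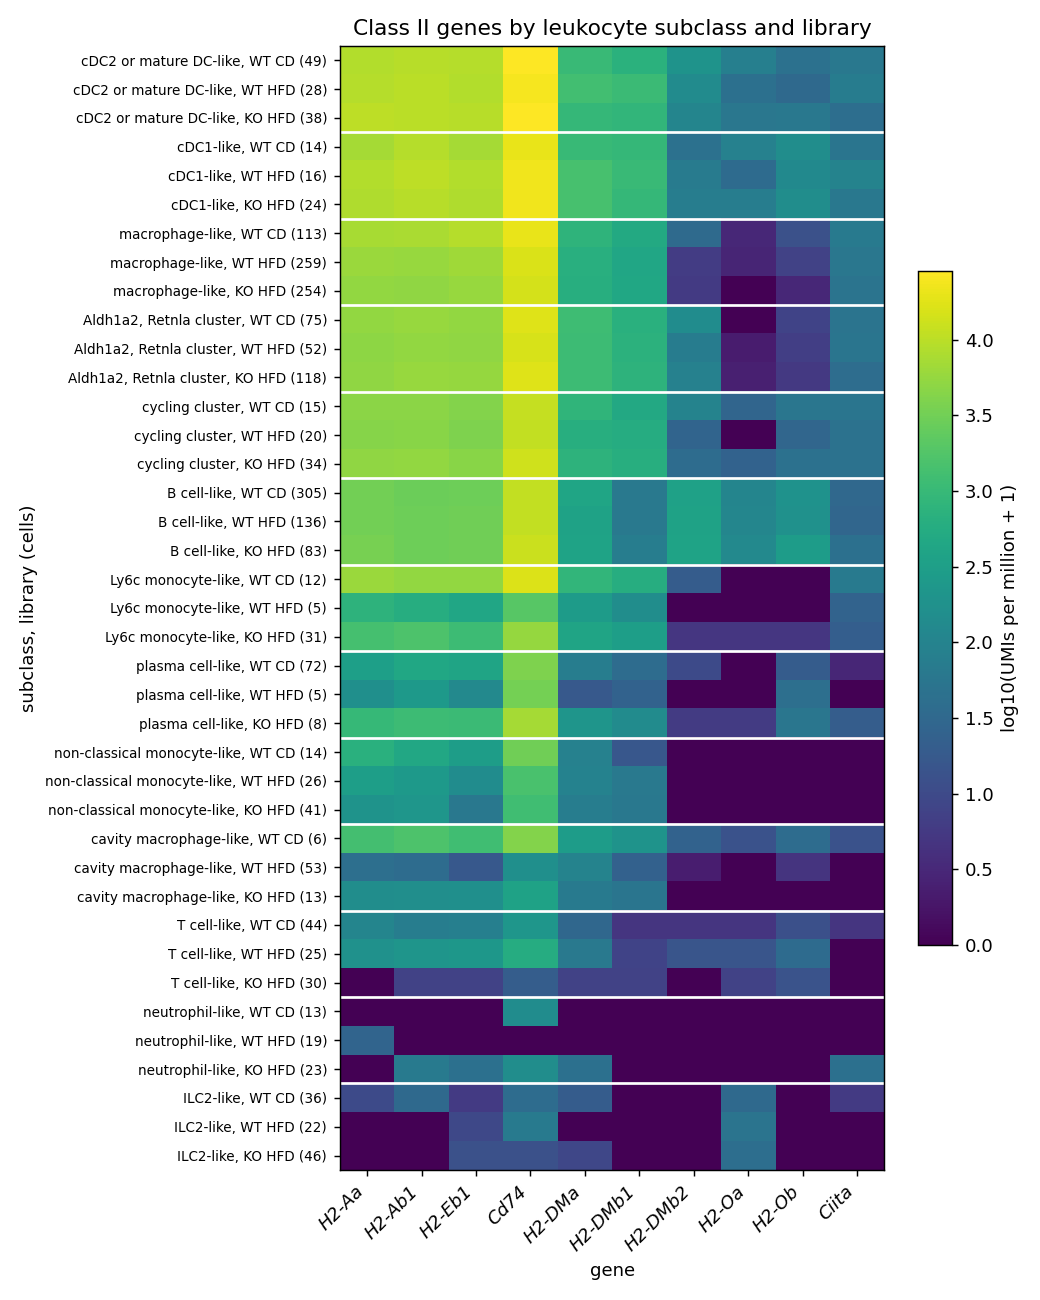
Levels of the 10 class II genes (x axis) in each leukocyte subclass and library (y axis, cells in parentheses) as log10(CPM + 1) by color. Dendritic cell-like, macrophage-like and B cell-like groups are bright for *H2-Aa*, *H2-Ab1*, *H2-Eb1* and *Cd74*, whereas *H2-DMb2*, *H2-Oa* and *H2-Ob* are brightest in B cell-like cells and dark in macrophage-like cells.

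Levels differed among the smallest groups by library, and each such value rests on few cells. Cells like Ly6c monocytes, recent arrivals from blood, summed to 34913 CPM in WT CD (12 cells), 4278 CPM in WT HFD (5 cells) and 10517 CPM in KO HFD (31 cells). Without the top cell of each library these became 30088, 1442 and 7287 CPM. Cells like cavity macrophages, led by *Saa3*, *Prg4* and *Alox15*, summed to 9021 CPM (6 cells), 386 CPM (53 cells) and 966 CPM (13 cells). A single cell held 704 of 743 UMIs in WT CD, 133 of 312 in WT HFD and 156 of 185 in KO HFD, and without it the levels were 737, 226 and 165 CPM. After thinning, the median cell had 1.5, 1 and 1 class II UMIs, so no difference between libraries was read from this group.

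The accessory genes divided the subclasses in ways the classical chains did not. *H2-DMb2* stood at 355, 370.1 and 391 CPM in B cell-like cells, where *H2-DMb1* stood at 61.4, 62.2 and 76.4 CPM. In cDC1-like cells the order was reversed, with *H2-DMb1* at 941, 1027 and 927 CPM and *H2-DMb2* at 45.8, 69.2 and 76.3 CPM. The share of *H2-DMb2* among UMIs of both β chain genes was 85.3, 85.6 and 83.6% in B cell-like cells. It was 4.64, 6.32 and 7.60% in cDC1-like cells. B cell-like cells contributed 64.1, 59.4 and 37.8% of the leukocyte *H2-DMb2* UMIs.

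Several further groups had their highest *H2-DMb2* share in WT CD, 5 of them with an interval clear of both high-fat libraries. In cells like cDC2 or mature dendritic cells it was 22.1% (18.5 to 26.1), 11.6% (8.39 to 15.5) and 11.1% (8.27 to 14.4). There *H2-DMb1* stood at 692, 1082 and 864 CPM and *H2-DMb2* at 197, 142 and 107 CPM. The diet log2 ratio was 0.65 (0.42 to 0.87) for *H2-DMb1*. For *H2-DMb2* it was −0.47, with an interval that included 0 (−1.04 to 0.07). In the *Aldh1a2* and *Retnla* cluster the share was 18.0% (15.7 to 20.6), 9.14% (7.08 to 11.6) and 10.6% (9.19 to 12.2). In the cycling cluster it was 16.5, 4.41 and 5.49%, and in macrophage-like cells 6.21, 1.14 and 1.03%. In the remaining unnamed cells it was 50.5, 31.9 and 17.5%. Of those unnamed cells 51.1, 61.3 and 23.8% had at least 2 B cell markers. The cells with at least 2 held 135 of 140, 95 of 100 and 12 of 14 of the group's *H2-DMb2* UMIs. In each of these 5 groups the high-fat intervals overlapped each other. Plasma cell-like cells were at 20.3, 0 and 3.45%, with intervals that overlapped.

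B cell marker levels in these groups were read beside the shares, and their part in the shares was not tested. In the *Aldh1a2* and *Retnla* cluster they summed to 2.53, 4.65 and 2.52 CPM (6 markers, *Cd79b* the most abundant, *Pax5* at 0), and 0 cells had as many as 2 of them. In cells like cDC2 or mature dendritic cells they summed to 7.42, 3.64 and 40.3 CPM. In macrophage-like cells they summed to 178, 38.7 and 18.6 CPM, in the cycling cluster to 18.4, 8.71 and 7.04 CPM and in the remaining unnamed cells to 2029, 1771 and 992 CPM, each highest in WT CD. The macrophage-like *H2-DMb2* level of 33.5, 5.07 and 4.64 CPM also leaned on single cells. Of its 32 UMIs in WT CD, 14 came from 1 cell, and without that cell the level was 19.2 CPM. That was the one member past 1.5-fold lower in macrophage-like cells under the diet, with a log2 ratio of −2.72 (−3.86 to −1.70) from 32 and 11 UMIs. Without that cell neither library reached 20 CPM, and the call was lost. At 19.2 CPM the WT CD level still stood above the 5.07 CPM of WT HFD.

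**Figure D4:**
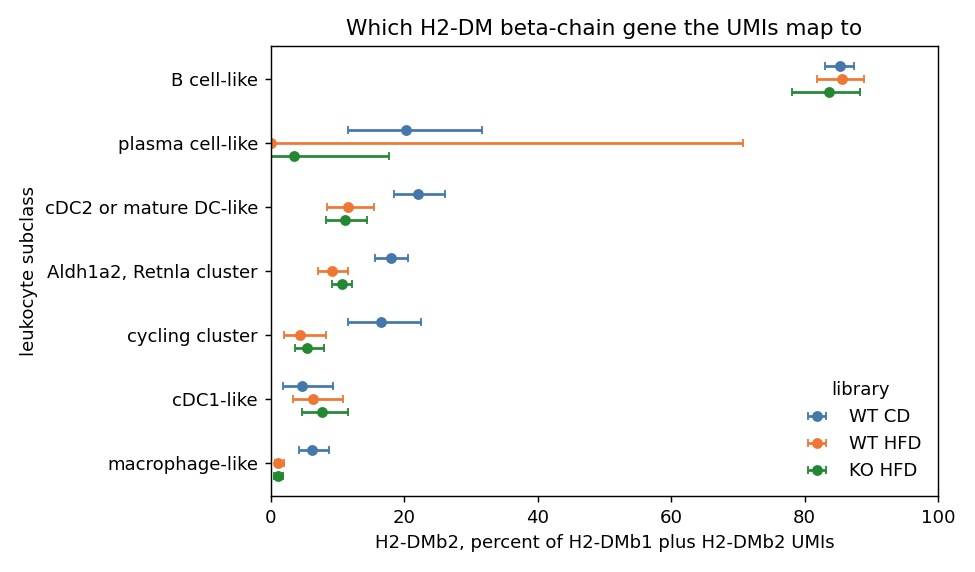
Share of *H2-DMb2* among the UMIs of *H2-DMb1* and *H2-DMb2* (x axis, percent) in 7 leukocyte groups (y axis), with 1 point for each library and 95% binomial counting intervals. B cell-like cells lie between 83.6 and 85.6% in every library, and the WT CD point lies right of both high-fat points in the cDC2 or mature dendritic cell-like, *Aldh1a2* and *Retnla*, cycling and macrophage-like groups.

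*H2-Oa* and *H2-Ob* were read mainly in B cell-like and dendritic cell-like cells. In B cell-like cells *H2-Oa* stood at 107, 112 and 125 CPM and *H2-Ob* at 185, 181 and 295 CPM. B cell-like cells held 73.5, 68.4 and 42.4% of leukocyte *H2-Oa* UMIs and 75.5, 63.1 and 51.3% of *H2-Ob* UMIs. In cDC1-like cells *H2-Ob* stood at 150.3, 127 and 153 CPM and *H2-Oa* at 91.5, 34.6 and 76.3 CPM (14, 6 and 20 UMIs). In cells like cDC2 or mature dendritic cells *H2-Oa* stood at 81.6, 43.7 and 58.2 CPM. In macrophage-like cells, by contrast, *H2-Oa* was at 2.09, 1.85 and 0 CPM (0 of 2369162 UMIs in KO HFD) and *H2-Ob* at 11.5, 6.46 and 2.11 CPM.

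Within B cell-like cells the diet comparison was flat. Of 4242 genes, 7.38% were higher and 2.5% lower in WT HFD, and 0 of the 10 class II genes were in either set. Their log2 ratios lay between −0.14 for *H2-DMa* and 0.06 for *H2-DMb2* and *H2-Oa*, with a median of 0.02 beside 0.10 for all genes. Between KO HFD and WT HFD, 11.1% of 4462 genes were higher and 12.6% lower. *H2-Ob* was the one member counted, higher at 0.70 (0.37 to 1.04). The median of the 10 was 0.12, beside −0.02 for all genes. The 2 B cell-like clusters took different shares of each library. The one led by *Sox5*, *Il5ra* and *Zbtb32* held 223, 88 and 33 cells and *H2-Ob* at 160.5, 157 and 177 CPM. The one led by *Fcer2a*, *Cr2* and *Ighd*, markers of follicular B cells, held 82, 48 and 50 cells and *H2-Ob* at 279.6, 260.5 and 488 CPM. The second cluster also held more *H2-Oa*, at 249.6, 187 and 208 CPM against 69.6, 88.3 and 75.1 CPM.

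Macrophage-like cells, the largest leukocyte group of the high-fat libraries, had a lower class II sum in WT HFD than in WT CD. Every member that reached 20 CPM was lower in WT HFD than in WT CD, by log2 ratios from −0.20 for *H2-DMb1* and −0.26 for *H2-DMa* to −0.46 for *H2-Eb1*, apart from the larger value of *H2-DMb2* given above. The interval of *Ciita*, at −0.28, included 0 (−0.73 to 0.17). The sum differed by −0.36 (−0.38 to −0.34), and the median of the 8 members compared was −0.33, beside 0.05 for all 5083 genes. By the 1.5-fold rule 7.1% of genes were higher and 6.53% lower. Of the members 0 were higher and 1 was lower, *H2-DMb2*. Its call was lost at the 20 CPM floor without 1 cell, at 19.2 CPM in WT CD against 5.07 CPM in WT HFD. Between KO HFD and WT HFD the sum differed by −0.16 (−0.17 to −0.14), with 0 members past 1.5-fold, where 2.6% of 4997 genes were higher and 2.08% lower.

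The 4 macrophage-like clusters differed in level and in size. The one led by *Ccl8*, *Lyve1* and *Folr2*, genes of resident macrophages, held 23563, 21170 and 19455 CPM in 41, 107 and 102 cells. The one led by *Ccl12*, *Ccl7* and *Cxcl10* held 58414, 57233 and 53959 CPM in 44, 53 and 71 cells. The one led by *Rac3*, *Ms4a7* and *Cbr2* held 66775, 54334 and 60268 CPM in 18, 64 and 43 cells. None of these 3 differed between libraries by as much as 1.5-fold.

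The fourth cluster, led by *Gpnmb*, *Mmp12* and *Trem2*, genes of lipid-associated macrophages, differed most. It held 49417 CPM (48242 to 50614) in 10 WT CD cells, 25133 CPM (24716 to 25555) in 35 WT HFD cells and 16102 CPM (15807 to 16402) in 38 KO HFD cells. With each cell thinned to 3000 UMIs, the median cell had 158.5, 77 and 54 class II UMIs, and the ranges were 83 to 246, 3 to 160 and 0 to 143. The ranges overlapped, and the WT CD value rests on 10 cells. Without this cluster the macrophage-like log2 ratios were −0.20 for the diet and −0.02 for the knockout. With the 4 clusters weighted alike in each library by their mean UMI share, they were −0.31 and −0.11.

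**Figure D5:**
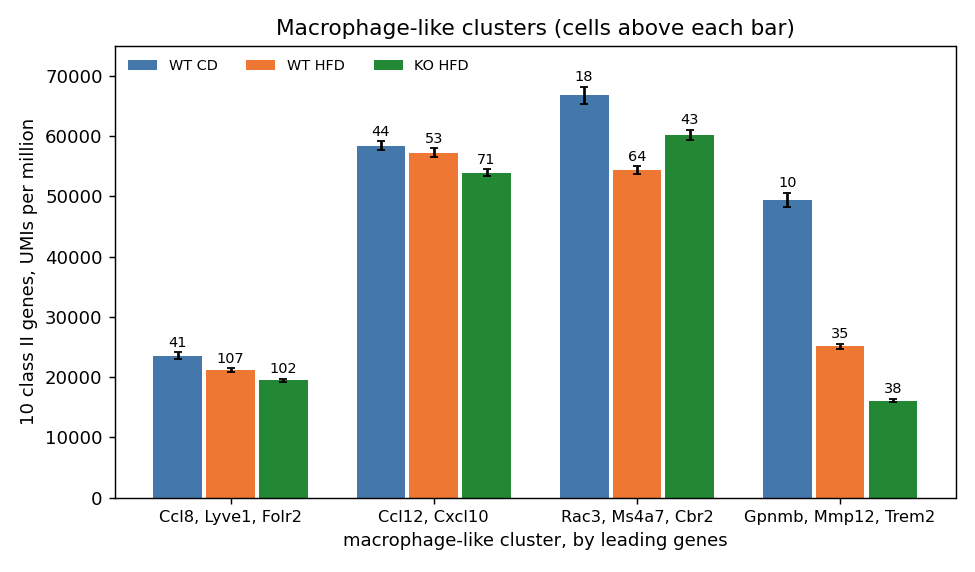
Summed CPM of the 10 class II genes (y axis, from 0) in the 4 macrophage-like clusters (x axis, by leading genes), with a bar for each library, 95% Poisson counting intervals and the number of cells above each bar. The cluster led by *Gpnmb*, *Mmp12* and *Trem2* stands at 49417, 25133 and 16102 CPM, and the cluster led by *Ccl8*, *Lyve1* and *Folr2* is low in all 3 libraries.

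In endothelium and MuSCs the counts were few. In endothelium the 10 genes gave 46, 48 and 59 UMIs in 344, 401 and 294 cells, and 11.6, 8.48 and 12.6% of cells had at least 1. In MuSCs 10.8, 10.4 and 9.68% of cells did, at median depths of 4604, 5484 and 5835 UMIs against 3444.5, 3908 and 3590 in endothelium. After thinning, the endothelial shares were 8.06, 6.69 and 11.5% and those of MuSCs 5.15, 7.06 and 5.39%, with 133, 117 and 111 endothelial cells too shallow to keep. The intervals of the thinned shares overlapped those of MuSCs in every library. *Ciita* had 0, 1 and 0 UMIs in endothelium, too few to read at this level of the sum, and *H2-Oa* had 0 in every library, where a count of 0 allows up to 2.15, 1.64 and 2.39 CPM (3 counts).

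The endothelial log2 ratio of KO HFD over WT HFD was 0.85 (0.27 to 1.43). Of the 59 UMIs in KO HFD, 13 came from 1 cell. That cell also had a leukocyte marker UMI, as did 67 of the 294 KO HFD endothelial cells (22.8%). Without that cell the level was 36.9 CPM (27.0 to 49.3), an interval that overlapped that of WT HFD (19.3 to 34.7). The ratio of WT HFD over WT CD was −0.33 (−0.95 to 0.28). When classes were taken from clusters of all cells in place of marker rules, the knockout ratio turned to −0.71, so no direction was read from it.

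FAPs held 614, 352 and 494 class II UMIs in 1976, 1806 and 2182 cells. *Cd74* stood at 12.98, 5.70 and 7.73 CPM, *H2-Eb1* at 6.63, 6.73 and 5.63 CPM and *H2-Ab1* at 6.58, 2.93 and 4.45 CPM. No member reached 20 CPM, so none entered the 1.5-fold rule. At least 1 class II UMI was seen in 17.1, 14.8 and 14.9% of FAPs, and in 7.08, 5.52 and 5.97% after thinning, within the intervals of the MuSC shares. *Ciita* had 2, 2 and 7 UMIs. The sum was lower in WT HFD than in WT CD by a log2 ratio of −0.76 (−0.95 to −0.57) and higher in KO HFD than in WT HFD by 0.32 (0.12 to 0.52). With every cell thinned to 3000 UMIs the first value became −0.30 and the second −0.04, so no direction was read from the second. The 6 B cell markers in FAPs stood at 2.45, 0.690 and 1.43 CPM. The class II sum of MuSCs was 46.2 CPM in WT CD and 18.0 CPM in WT HFD. Without the top cell of each library it was 25.8 CPM (18.4 to 35.1) and 16.8 CPM (11.1 to 24.5), intervals that overlapped. The thinned MuSC shares went the other way, at 5.15% in WT CD and 7.06% in WT HFD. How these values bear on those of FAPs was not tested.

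A FAP cluster led by *Cxcl13*, *Agt* and *Hp* had more class II UMIs than the other FAPs in WT CD. Its 83, 39 and 44 cells held 214 CPM (184 to 248), 36.4 CPM (19.9 to 61.0) and 123 CPM (93.1 to 159), against 25.5, 19.9 and 22.9 CPM in the other FAPs. In KO HFD 1 cell held 38 of its 57 UMIs, and in WT CD 47 of 177 came from 1 cell. Without the top cell of each library the levels were 163, 23.9 and 42.3 CPM. After thinning, 16.3, 2.63 and 13.6% of its cells had a class II UMI, against 6.68, 5.59 and 5.82% of the other FAPs, and the intervals overlapped in WT HFD and KO HFD. Without the whole cluster the FAP diet ratio was −0.36. Of the 614 UMIs in WT CD FAPs, 192 lay in 7 cells with at least 10 each. A leukocyte marker UMI was seen in 6 of these 7 cells and in 9.36% of all WT CD FAPs. The part of doublets or free RNA in these counts was not tested.

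Mesothelial cells, the lining of the diaphragm surface, had higher class II levels than endothelium, FAPs or MuSCs in each library. Marked by *Msln*, *Lrrn4* and *Upk3b*, they numbered 26, 71 and 41 and held 535 CPM (456 to 625), 278 CPM (242 to 318) and 257 CPM (211 to 308). *Cd74* was the most abundant, at 286, 125 and 129 CPM, while *H2-DMb2*, *H2-Oa*, *H2-Ob* and *Ciita* had 0 UMIs in all 138 cells. After thinning, 61.5, 40 and 31.7% of the cells had a class II UMI, above the MuSC shares and their intervals in each library. In these cells *Ptprc*, *Laptm5*, *Cd53* and *Rac2* were at 0, *Coro1a* and *Cd52* at 1.33 CPM each, and *Arhgdib* at 334 CPM. Of the 138 cells, 13 with at least 10 class II UMIs each held 286 of the 485 UMIs (67.7, 51.7 and 60.2% by library), and all 13 had a leukocyte marker UMI, as did 124 of all 138. The part of doublets or free RNA was not tested. Of the 161 UMIs in WT CD, 71 came from 1 cell, and without it the level was 319.8 CPM (257 to 393).

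Genes that work beside class II were compared from fixed lists. Of 8 endosomal processing genes, 5 were higher in WT HFD than in WT CD leukocytes and 0 lower, beside 16.7% of all genes higher and 3.41% lower, with a median log2 ratio of 0.99 beside 0.21 for all genes. With TMM factors 4 were higher, beside 9.03% of all genes, since *Ctss* was no longer past 1.5-fold, and the median was 0.77. Cathepsin S (*Ctss*), which trims the invariant chain, stood at 575, 902 and 984 CPM. *Ctsb* stood at 349, 905 and 977 CPM, *Ctsd* at 171, 455 and 485 CPM, *Ctsl* at 64.0, 162 and 231 CPM, and the endopeptidase *Lgmn* at 97.8, 252 and 235 CPM. Lysosomal proteases are abundant in macrophages. Macrophage-like cells were the larger share of leukocytes in both high-fat libraries, and within them 1 of the 8, *Ctsd*, was higher by the rule, beside 7.1% of all genes. The part of make-up in these values was not tested. *Ifi30*, a thiol reductase that unfolds antigens, stood at 404, 367 and 424 CPM in leukocytes.

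Of 17 genes for transcription and its inducers, 11 reached 20 CPM in the diet comparison, 2 were higher and 1 lower, with a median of 0.18 beside 0.21 for all genes. Of all genes 16.7% were higher and 3.41% lower, so the count of higher genes is no result about the list. *Spi1*, the myeloid and B cell factor PU.1, stood at 159, 284 and 303 CPM, *Ifngr2* at 28.8, 43.2 and 43.7 CPM, and *Irf4*, high in plasma cells, at 37.6, 24.4 and 23.5 CPM. *Rfx5*, a subunit of the X box factor, was sparse at 2.66, 5.18 and 2.60 CPM, and *Ifng* itself was at 4.51, 3.50 and 1.82 CPM. Of 13 class I genes 11 were compared, 0 were past 1.5-fold, and their median was −0.22. Costimulation (4 of 7 compared) and turnover (2 of 3 compared) also had 0 past 1.5-fold. With TMM factors 2 class I genes, *Tap2* and *Psmb9*, and 1 costimulation gene, *Cd274*, were lower. In the knockout comparison 0 genes of any of these lists were past 1.5-fold. *H2-Eb2*, another class II β chain gene, stood at 12.8, 6.85 and 7.01 CPM, too low to be compared.

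The genes most like the classical program across leukocytes were found by the Pearson correlation of log2(CPM + 1) with the mean of *H2-Aa*, *H2-Ab1*, *H2-Eb1* and *Cd74*. It was computed among 9374 genes over 27 sums of 13 subclasses by library, each of at least 20 cells. Plasma cell-like, cDC1-like, cavity macrophage-like, Ly6c monocyte-like and neutrophil-like cells thus entered from 1 library each. The sums share libraries and depth, and the correlation is given as a description. The 10 highest outside the group were *Cd83* (0.94), *Fgd2* (0.92), *Slamf9* (0.91), *Ly86* (0.89), *Scimp* (0.89), *Plekho1* (0.88), *Erp29* (0.88), *Pepd* (0.88), *Il18* (0.88) and *Ctsh* (0.88). Within the group *H2-DMa* reached 0.95 and *H2-DMb1* 0.93. *H2-DMb2* and *Ciita* were both at 0.81, *H2-Ob* at 0.61 and *H2-Oa* at 0.07. So *H2-Oa* did not follow the classical chains from subclass to subclass.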

How the data were processed

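The deposited files held raw UMI counts per gene and cell from 10x Genomics 3′ v3.1 libraries, which the authors made with Cell Ranger (6.1.1 in the submitters' processing notes, 6.1.0 in the file headers) against mm10. All 12275 deposited barcodes were used, with Scrublet doublet calls noted but not removed. Cells were placed by marker genes, cells meeting no rule or several rules were set apart, and leukocytes were clustered with scanpy 1.11.5 (2000 variable genes, 30 principal components, 15 neighbors, resolution 1.5) without the 10 genes. The thresholds for cluster names were chosen with the clustering in view, and the members and gene lists were chosen with earlier results of these data known. Counts were summed per class and library and divided by the class total. Intervals were computed with scipy 1.17.1 and numpy 2.4.6, tables were handled with pandas 2.3.3, figures were drawn with matplotlib 3.10.9, and TMM factors came from edgeR 4.0.16 in R 4.3.3. No test was made, because each group was 1 library. Summing and ratio steps were tested on simulated data. A ratio needed 20 CPM in 1 of its 2 libraries and 1.5-fold. The genes named were the 10 members, the fixed lists and the 10 genes of highest likeness, besides marker and leading cluster genes. The transcription list under TMM factors is not reported here.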

Additional observations from a re-analysis of the deposited data

Results flagged for a closer look

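Cells outside the marker classes also held class II UMIs, above the level of MuSCs, which served as the control class. Cells that met no class rule held 597, 377 and 331 CPM in WT CD, WT HFD and KO HFD. Cells that met the rules of several classes held 10476, 7567 and 10454 CPM, at median depths of 13160, 13473.5 and 14352.5 UMIs.

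Some subclasses had class II sums that differed between libraries in opposite directions. For WT HFD over WT CD the log2 ratio was 0.22 in cDC1-like cells and −0.36 in macrophage-like cells. For KO HFD over WT HFD it was 0.11 in cells like cDC2 or mature dendritic cells and −0.16 in macrophage-like cells. With 1 library a group, the difference between these ratios was not tested.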

How the results depend on the processing

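No paired analysis was possible because each group was 1 library. Ratios are log2, WT HFD over WT CD for the diet and KO HFD over WT HFD for the knockout. Alternatives on common make-up, on single clusters and on macrophage-like or B cell-like cells were chosen after seeing the data. Except where a sentence says otherwise, the cause of a shift was not tested.

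The leukocyte diet sum of 0.10 became 0.080 with a stricter marker rule, 0.051 with clusters of all cells and 0.13 with cells thinned to 3000 UMIs. It became −0.13 with TMM factors, −0.21 with subclasses weighted alike and −0.18 at a common make-up. The −0.21 leans on few cells, since small groups weigh as much as large ones. Ly6c monocyte-like cells held 34913 CPM in 12 WT CD cells and 4278 CPM in 5 WT HFD cells. Cavity macrophage-like cells held 9021 CPM in 6 WT CD cells (704 of 743 UMIs in 1 cell) and 386 CPM in 53 WT HFD cells. Leaving *H2-Aa*, *H2-Ab1* or *H2-Eb1* out of the leukocyte diet sum gave 0.083, 0.084 and 0.080, and leaving out *Cd74* gave 0.18. The leukocyte knockout sum of 0.16 became 0.14 with the stricter rule, 0.18 with TMM factors, 0.065 after thinning, 0.064 with subclasses weighted alike, 0.024 at a common make-up and 0.15 without *Cd74*. The 3 members lower under the diet became 0 with subclasses weighted alike and 0 at a common make-up. The count of members higher went from 0 to 1 after thinning, where the diet ratio of *Ciita* went from 0.277 to 0.587. At a common make-up that ratio was −0.066. TMM factors turned 807 higher and 165 lower genes into 440 and 315.

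With clusters of all cells the endothelial diet ratio became −1.85 and the knockout ratio reversed to −0.71. With the MuSC level subtracted the knockout ratios became 1.90 in endothelium and 1.94 in FAPs. In WT HFD the intervals of endothelium (19.3 to 34.7 CPM) and FAPs (18.2 to 22.5 CPM) overlapped that of MuSCs (12.04 to 25.8 CPM). Both ratios therefore divide by a small, uncertain remainder, and their size was not read. The diet ratios could not be computed, since the MuSC level in WT CD, as counted, was above that of both classes. Without 1 cell that MuSC level was 25.8 CPM, below the 32.9 CPM of endothelium and the 34.2 CPM of FAPs. A subtraction without that cell is not reported here. The FAP diet ratio became −0.30 after thinning, −0.36 without the *Cxcl13* and *Agt* cluster, −1.03 without *H2-Eb1* and −0.54 without *Cd74*. The FAP knockout ratio became 0.84 with clusters of all cells, −0.036 after thinning and 0.54 without *H2-Eb1*.

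In macrophage-like cells the diet ratio became −0.31 with clusters at a common make-up, −0.20 without the *Gpnmb* cluster and −0.30 after thinning, and the knockout ratio −0.11, −0.021 and −0.073. In B cell-like cells the knockout ratio became 0.030 with clusters at a common make-up and 0.15 after thinning. A further 78 values of these results stayed within the counting intervals, or within 1.5 times for counts. Depth limits endothelium, where the 10 genes gave 46, 48 and 59 UMIs by library. Levels without the top cell of each subclass, and gene lists under TMM factors, were added after seeing the data.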

Other observations

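*H2-Oa* was also read in ILC2-like cells, group 2 innate lymphoid cells marked by *Gata3* and *Il1rl1*, which held few other class II transcripts. It stood at 32.3, 50.5 and 40.005 CPM in WT CD, WT HFD and KO HFD, with a UMI in 20 of 104 cells (19.2%). *H2-Ob*, *H2-DMb1* and *H2-DMb2* had 0 UMIs in these cells, and in T cell-like cells *H2-Oa* stood at 7.08 CPM. B cell markers in ILC2-like cells summed to 4.61, 16.8 and 8.001 CPM, and 0 cells had as many as 2 of them.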
